A study of Canis lupus familiaris and Dasypus novemcinctus and Ornithorhynchus anatinus with 3 samples.

Results

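Chemokines, interleukins and their receptors were examined in the lining of the uterus (endometrium) of 3 pregnant mammals. Members were taken by gene name alone: any symbol that begins with CCL, CXCL, CCR, CXCR or IL directly followed by a digit, without IL15, IL6ST, IL6R and IL11RA. A member also had to be listed in at least 2 of the 3 gene tables, which left 69 of the 12474 symbols listed in at least 2 tables. They comprised 9 chemokine ligands, 6 chemokine receptors, 21 interleukins, 32 interleukin receptors and 1 enzyme, IL4I1, an amino acid oxidase that carries the prefix only in its name. Dog values existed for 57 of them, armadillo values for 48 and platypus values for 52, with 19 members in all 3 tables.

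Messenger RNA was sequenced from pregnant endometrium of 2 placental mammals (eutherians), the dog and the armadillo, and of the egg-laying platypus. Each species had 1 library, so species and library cannot be told apart, no p-value was computed, and every interval covers counting error only. The sources used here do not give the stage of pregnancy or the number of animals behind a library. Read totals were 13625465 (dog), 13218476 (armadillo) and 2243556 (platypus). A level is given as CPM, which is a gene's count divided by the library total and scaled to 1000000, without correction for gene length.

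Chemokines are small secreted proteins that guide leukocytes through receptors with a bundle of membrane-spanning helices, and CC and CXC chemokines differ in the spacing of their first cysteines. Interleukins are secreted signals between immune, epithelial and stromal cells that act through receptors built of paired chains. In the uterus of eutherians these signals are known for their part in implantation, in the recruitment of uterine leukocytes and in the balance between inflammation and tolerance during pregnancy.

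Most members were found at low levels in dog and platypus and at higher levels in armadillo. At least 2 CPM was reached by 11 of 57 members (19.3%) in dog, against 58.3% of all listed dog genes. In platypus 10 of 52 members (19.2%) reached it, against 45.9% of all listed genes, and 36 members (69.2%) were listed at 0, against 42.4% of all genes. In armadillo 28 of 48 members (58.3%) reached 2 CPM, against 81.5% of all listed genes, but genes without reads are left out of that table. Over the 19 members in all 3 tables the median was 0.514 CPM for dog, 5.30 CPM for armadillo and 0 for platypus, and 5, 14 and 4 of them reached 2 CPM. Of all 69 members 24 reached 5 CPM in at least 1 library.

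**Figure D1:**
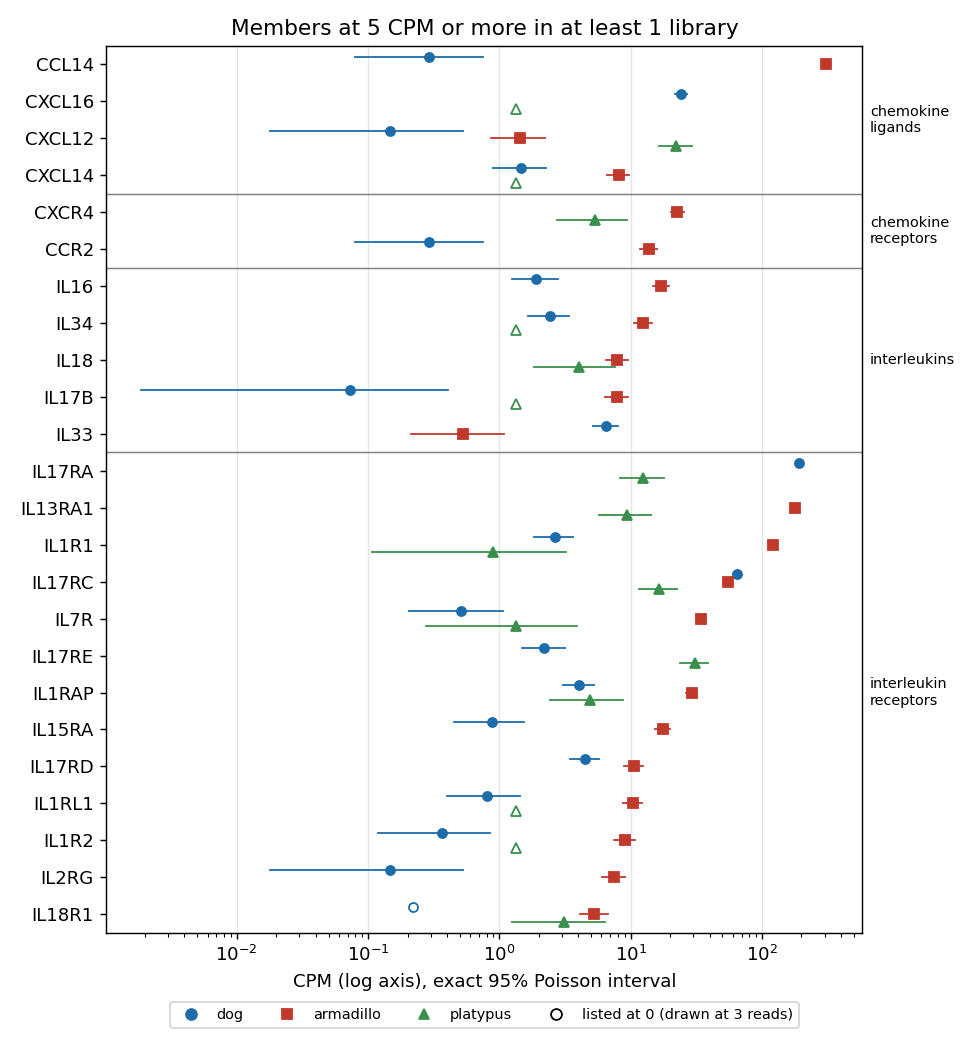
Level of the 24 members at 5 CPM or more in at least 1 library, with CPM on a log axis and genes grouped by role. Filled symbols give the level in dog, armadillo and platypus with its exact 95% Poisson interval, open symbols mark a gene listed at 0 and are drawn at 3 reads, and no symbol means that the gene is not listed under this name. Armadillo symbols lie to the right of the dog symbols for every gene with both except IL33 and IL17RC.

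Between dog and armadillo the members leaned towards armadillo. A gene was counted as apart where the fold reached 4 after adding 1 CPM to both levels and the higher library had at least 5 CPM. Of 36 matched members 12 (33.3%) were higher in armadillo, where 13.2% of 8854 matched genes were. IL33 was the 1 member (2.78%) higher in dog, against 12.6% of all matched genes. The median log2 fold of dog over armadillo was -1.23 over the members and 0.00 over all matched genes, and 31 of 36 members lay below 0. A gene enters this pair only with at least 1 read in armadillo but may be at 0 in dog. With genes at 0 left out, 11 of 30 members were higher in armadillo and 1 in dog, against 12.9% and 13.3% of 8332 genes.

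Between dog and platypus 4 of 40 members passed the limit in either direction, between armadillo and platypus 10 of 31, and 36 of the 52 members listed in platypus were at 0. Dog and platypus shared 40 members, of which CXCL16 and IL17RA were higher in dog (2 members, against 32.0% of 9026 matched genes). CXCL12 and IL17RE were higher in platypus (2 members, against 9.93% of matched genes). The limit needs 5 CPM in the higher library, which 5 of the 40 members and 6626 of the 9026 genes reached. Of those 5 members 40% were higher in dog and 40% in platypus, against 43.5% and 13.5% of the 6626 genes. With genes at 0 left out only 7 members remained, 1 of them higher in dog and 2 in platypus, against 28.7% and 13.3% of 5946 genes. Between armadillo and platypus 9 of 31 members (29.0%) were higher in armadillo, against 36.1% of 7296 matched genes, and CXCL12 alone was higher in platypus, against 11.0%. Of the 14 members at 5 CPM or more in either library, 64.3% were higher in armadillo and 7.14% in platypus. Of the 6082 genes at that level, 43.3% and 13.3% were. Without genes at 0 the counts were 4 and 1 of 12, against 27.5% and 14.9% of 5393 genes. The median log2 fold was 0.15 for dog over platypus (0.61 over all matched genes) and 1.77 for armadillo over platypus (1.06 over all). Scaling by the upper quartile moved the split of all called genes: 59.1% instead of 76.3% were then higher in dog than platypus, and 63.7% instead of 76.6% higher in armadillo than platypus. That scaling shifts log2 folds by -1.00 for dog over platypus and by -0.75 for armadillo over platypus.

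Among the 19 members with 3 values, 0 passed the limit upwards in dog and armadillo alike relative to platypus, against 25.8% of 6351 genes. CXCL12 alone passed it downwards in both, against 5.48% of those genes. Passing upwards in both takes at least 5 CPM in dog, which 1 of the 19 members reached, so the 0 was close to fixed in advance. Both comparisons use the same platypus library. A 0 in platypus allows up to 3 reads, or 1.34 CPM, and a 0 in dog up to 0.220 CPM. Platypus zeros were also seen for genes of general use: RPS15, a ribosomal protein gene at 893 CPM in dog, was listed at 0 there. Of 4509 genes at 20 CPM or more in dog and matched to platypus, 835 (18.5%) were listed at 0 in platypus. No fold is given for a member listed at 0.

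**Figure D2:**
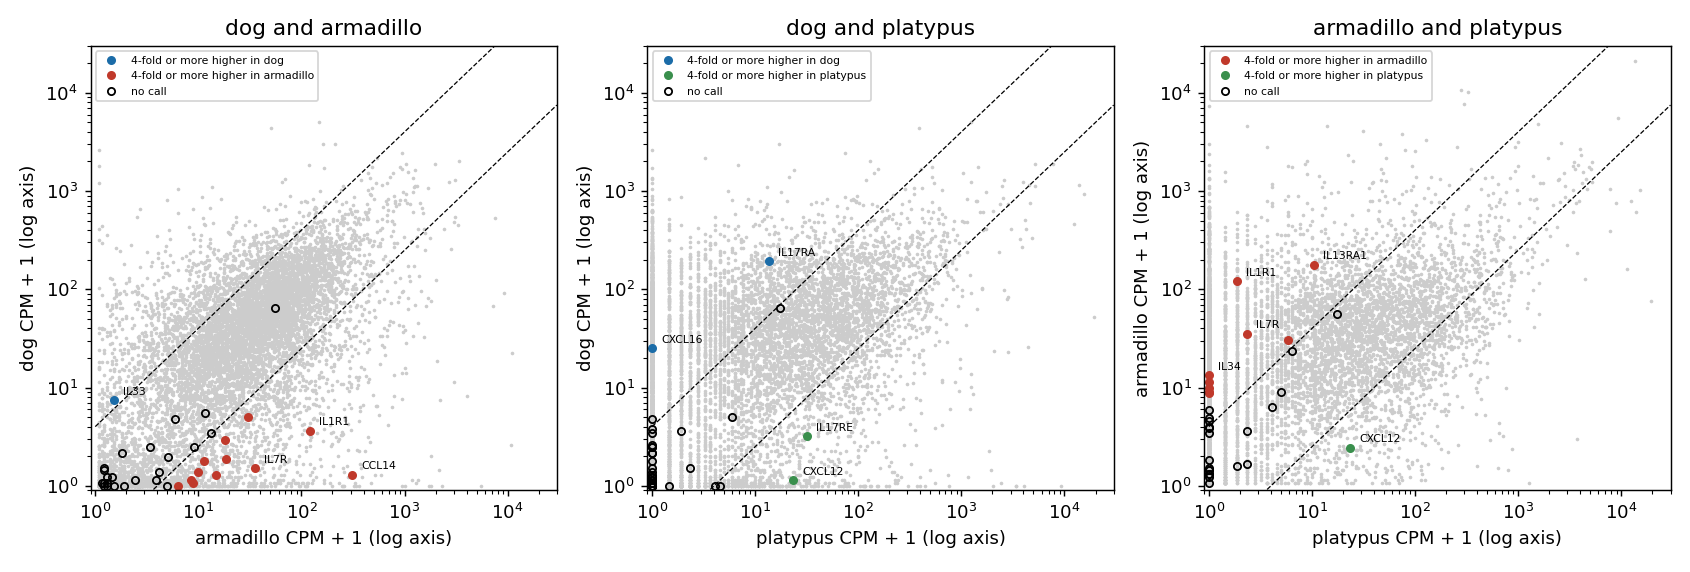
Members against all matched genes in each pair of libraries, as CPM + 1 on log axes. Grey points are all genes matched in the pair, coloured points are members at least 4-fold apart, open circles are the other members, and dashed lines mark 4-fold. In the dog and armadillo panel 12 members lie in the armadillo corner and 1, IL33, on the dog side.

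Among the chemokine ligands, CCL14, a CC chemokine that attracts monocytes and circulates in plasma, had the largest fold between the eutherians. CCL14 stood at 0.294 CPM (4 reads) in dog and 310 CPM (95% interval 300 to 319) in armadillo (ENSDNOG00000024350). The armadillo level was 1055-fold (95% interval 412 to 3874) higher, and the range of the fold comes from the 4 dog reads. CC chemokines lie in clusters of similar genes, and reads of close copies could be split or shared in counting, so the level of CCL14 is uncertain to that extent. Its neighbour CCL16 had 7 reads in armadillo and was listed at 0 in dog.

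CXCL12, which attracts cells bearing CXCR4 and is made by stromal cells, was the 1 member high in platypus relative to both eutherians. It stood at 0.147 CPM (2 reads) in dog, 1.44 CPM (95% interval 0.865 to 2.24) in armadillo and 22.3 CPM (95% interval 16.5 to 29.4) in platypus (ENSOANG00000000657). The platypus level was 152-fold (95% interval 39.9 to 1288) that of dog and 15.5-fold (95% interval 8.98 to 27.8) that of armadillo. The dog gene model of CXCL12 is 240 bases long, the shortest among the 41 members with a dog length, whose median was 1143 bases. Model lengths in armadillo and platypus are not given in the tables, so the part of model length in this difference was not tested.

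CXCL16, a membrane-bound chemokine and the ligand of CXCR6, stood at 24.3 CPM (95% interval 21.7 to 27.1) in dog (ENSCAFG00000015892) and was listed at 0 in platypus. It is not listed in armadillo. CXCL14, a chemokine of epithelia, stood at 1.47 CPM in dog and 8.09 in armadillo and was listed at 0 in platypus. The armadillo level of CXCL14 was 5.51-fold (95% interval 3.40 to 9.39) that of dog, but its log2 fold after adding 1 CPM was 1.88 in size and missed the limit. The remaining ligands had few reads: CCL22 (1 in dog), CXCL13 (4 in armadillo), CXCL17 (1 in dog and 3 in armadillo) and IL8, the neutrophil attractant (6 in armadillo).

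Of the 6 chemokine receptors, CXCR4 and CCR2 reached 5 CPM, both in armadillo. CXCR4, the receptor of CXCL12 on leukocytes and other cells, stood at 22.7 CPM (95% interval 20.2 to 25.4) in armadillo and 5.35 (95% interval 2.76 to 9.34) in platypus. The armadillo level was 4.24-fold (95% interval 2.39 to 8.30) higher, which after adding 1 CPM came to a log2 fold of 1.90, just under the limit. Receptor and ligand thus had opposite orders between armadillo and platypus. A dog row of CXCR4 under its UniProt entry name, which the match by symbol leaves out, held 22 reads (1.61 CPM). With that row, receptor and ligand were both lowest in dog. CCR2, the receptor that brings monocytes into tissue, stood at 0.294 CPM (4 reads) in dog and 13.8 CPM (95% interval 11.8 to 15.9) in armadillo, 46.9-fold (95% interval 18.0 to 174) higher.

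CCR7, which leads dendritic cells and lymphocytes to lymph nodes, stood at 0.367 CPM in dog and 3.18 in armadillo. CCR4, a receptor of helper T cells, had 34 reads in armadillo and 3 in platypus. CXCR6 was close in the eutherians, at 3.74 CPM (95% interval 2.79 to 4.92) in dog and 4.92 (95% interval 3.80 to 6.27) in armadillo, with intervals that overlap, and was listed at 0 in platypus. CCR10 had 7 reads in dog and 3 in armadillo.

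Among the interleukins, IL33 and its receptor chain IL1RL1 (ST2) were opposite in the eutherians. IL33, an alarm signal released from the nuclei of epithelial and endothelial cells, stood at 6.46 CPM (95% interval 5.18 to 7.96) in dog and 0.530 CPM (95% interval 0.213 to 1.09) in armadillo, 12.2-fold (95% interval 5.68 to 31.2) higher in dog. With upper-quartile scaling IL33 no longer passed the limit (log2 fold 1.99). For IL1RL1 the dog level was 0.807 CPM (95% interval 0.403 to 1.44) and the armadillo level 10.4 CPM (95% interval 8.70 to 12.3), 12.8-fold (95% interval 6.95 to 26.3) higher in armadillo. IL1RL1 was listed at 0 in platypus.

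IL16, a chemoattractant for CD4+ cells, stood at 1.91 CPM in dog and 17.1 in armadillo, 8.96-fold (95% interval 5.96 to 14.0) higher in armadillo. IL34, a ligand of the macrophage receptor CSF1R, stood at 2.42 CPM (95% interval 1.67 to 3.40) in dog and 12.4 (95% interval 10.6 to 14.5) in armadillo and was listed at 0 in platypus. The armadillo level of IL34 was 5.12-fold (95% interval 3.51 to 7.69) that of dog, with a log2 fold after adding 1 CPM of 1.97 in size, the nearest to the limit among members that missed it in this pair. IL17B, a member of the IL-17 family, had 1 read in dog and 104 in armadillo (7.87 CPM), a ratio of 107 (95% interval 18.8 to 4274), and was listed at 0 in platypus.

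IL18, an IL-1 family cytokine that induces interferon gamma, stood at 7.94 CPM (95% interval 6.50 to 9.62) in armadillo and 4.01 CPM (95% interval 1.83 to 7.62) in platypus, with overlapping intervals. IL1F10, also called IL-38, had 8 reads in platypus (3.57 CPM) and was listed at 0 in dog. IL19, of the IL-10 family, stood at 1.47 CPM in dog and 2.42 in armadillo and was listed at 0 in platypus. IL10, which damps inflammation, had 47 reads in armadillo (3.56 CPM) and was listed at 0 in platypus.

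The remaining interleukins had 0 to 9 reads under their symbols. IL17A, IL17C and IL17F, IL22, IL26 and IL1F5 were listed at 0 in both dog and platypus. IL6 had 8 reads in armadillo and 2 in platypus, while a dog row under its UniProt entry name, which the match by symbol leaves out, held 202 reads (14.8 CPM). Read numbers between 1 and 9 were found for IL11 (6 in dog, 3 in armadillo), IL12B (1 in armadillo), IL17D (9 in armadillo, 3 in platypus), IL20 (1 in dog, 4 in armadillo), IL23A (4 in dog) and IL27 (1 in dog, 2 in armadillo).

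By count, the IL-1 family had the most members higher in armadillo than in dog, 5 of 8 matched, all 5 of them receptor genes. It was also the family with the most matched members, and the common gamma chain group had 3 of 4. Over all matched genes 13.2% were higher in armadillo. IL1R1, the signalling receptor of IL-1, stood at 2.64 CPM (95% interval 1.85 to 3.66) in dog, 121 CPM (95% interval 115 to 127) in armadillo (ENSDNOG00000007656) and 0.891 CPM (2 reads) in platypus. Armadillo was 45.6-fold (95% interval 32.8 to 65.4) above dog and 135-fold (95% interval 37.4 to 1118) above platypus. IL1RAP, the accessory chain shared by these receptors, stood at 4.04 CPM (95% interval 3.04 to 5.25) in dog, 29.2 CPM (95% interval 26.4 to 32.3) in armadillo and 4.90 CPM (95% interval 2.45 to 8.77) in platypus. Armadillo was thus 7.23-fold (95% interval 5.44 to 9.78) above dog and 5.96-fold (95% interval 3.29 to 12.0) above platypus, and the intervals of dog and platypus overlap. With upper-quartile scaling IL1RAP no longer passed against platypus (log2 fold 1.69). IL1R2, a decoy that binds IL-1 without signalling, stood at 0.367 CPM in dog and 9.0 in armadillo, 24.5-fold (95% interval 10.2 to 76.9) higher, and was listed at 0 in platypus.

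IL18R1, the binding chain of the IL-18 receptor, was listed at 0 in dog and stood at 5.30 CPM (95% interval 4.13 to 6.69) in armadillo and 3.12 CPM (95% interval 1.25 to 6.43) in platypus. Its partner IL18RAP was listed at 0 in dog and in platypus and stood at 3.93 CPM in armadillo. IL1RL2, the receptor of IL-36, was listed at 0 in dog and had 12 reads in armadillo. IL1RAPL1 and IL1RAPL2, related receptors best known from the brain, had at most 7 reads, found in armadillo for IL1RAPL2.

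These receptor genes share a position that the choice of members did not use. In the dog RefSeq gene table (assembly UU_Cfam_GSD_1.0, used for names and order only), IL18RAP, IL18R1, IL1RL1, IL1RL2, IL1R1 and IL1R2 follow each other with 0 other protein-coding genes between them. All 6 had a higher level in armadillo, where every listed gene has reads, than in dog. Of the 6, 4 passed the 4-fold limit, against 13.2% of all matched genes higher in armadillo. In dog 3 of the 6 were listed at 0. With up to 2 other protein-coding genes allowed between members, 27 of the 68 members found in that table lay in 11 runs. The members of each run were adjacent except IL10 and IL19, which have 1 gene between them. The order of these genes in armadillo and platypus was not examined.

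**Figure D3:**
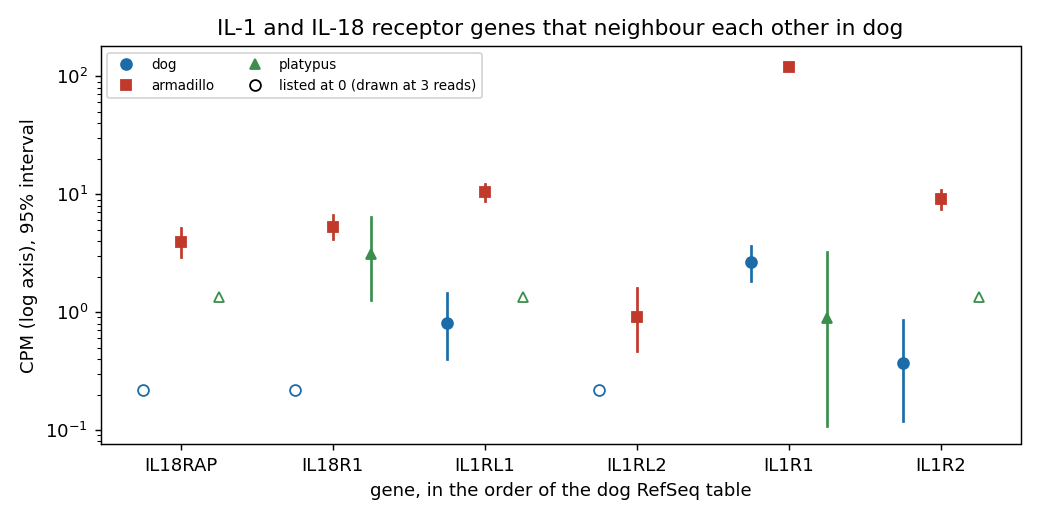
Level of the 6 IL-1 and IL-18 receptor genes that neighbour each other in dog, drawn in their dog order, with CPM on a log axis. Filled symbols carry the exact 95% Poisson interval, and open symbols mark genes listed at 0, drawn at 3 reads. The armadillo symbol is the highest for each gene, and its interval overlaps that of platypus for IL18R1.

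Of 4 IL-17 receptor chains at 2 CPM or more in dog, IL17RA had the highest level of all dog members, both as CPM and per kilobase of gene model. IL17RA, the chain shared by receptors of this family, stood at 192 CPM (95% interval 184 to 199) in dog (ENSCAFG00000016076) and 12.5 CPM (95% interval 8.29 to 18.0) in platypus, 15.3-fold (95% interval 10.6 to 23.1) higher in dog. It is not listed in armadillo. IL17RC, which pairs with IL17RA for IL-17A and IL-17F, was the 1 member above 10 CPM in all 3 libraries. It stood at 64.1 CPM (95% interval 59.9 to 68.5) in dog, 54.9 CPM (95% interval 51.0 to 59.1) in armadillo and 16.5 CPM (95% interval 11.6 to 22.7) in platypus. The order of dog and armadillo depended on scaling, with IL17RC 1.17-fold (95% interval 1.06 to 1.29) higher in dog as CPM and slightly higher in armadillo (log2 fold -0.10) with median-of-ratios scaling.

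IL17RE, the receptor of IL-17C, stood at 2.20 CPM (95% interval 1.49 to 3.14) in dog and 30.8 CPM (95% interval 23.9 to 38.9) in platypus (ENSOANG00000004459), 14.0-fold (95% interval 8.98 to 22.2) higher in platypus. Its ligand IL17C was listed at 0 in both. IL17RE and IL17RC overlap in the dog RefSeq table, and whether the counts used strand is not given in the sources used here, so reads from the shared stretch cannot be told apart. The same limit applies to all 14 members that overlap another gene in that table, among them CXCL16 (with ZMYND15 and MED11) and CXCR6 (with FYCO1). IL17RD, a modulator of growth factor signals, stood at 4.48 CPM (95% interval 3.42 to 5.75) in dog and 10.6 CPM (95% interval 8.91 to 12.5) in armadillo. The 2.37-fold difference of IL17RD (95% interval 1.74 to 3.25) was under the limit. IL17RB, the receptor of IL-17B and IL-25, stood at 0.954 CPM in dog and 4.09 in armadillo. IL17REL had 1 read in platypus and was listed at 0 in dog.

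Of 4 matched receptor chains of the common gamma chain group, 3 were higher in armadillo than in dog, where 13.2% of all matched genes were. IL7R, which T cell survival depends on, stood at 0.514 CPM (7 reads) in dog, 34.4 CPM (95% interval 31.3 to 37.7) in armadillo and 1.34 CPM (3 reads) in platypus. The armadillo level of IL7R was 67.0-fold (95% interval 32.3 to 168) above dog and 25.7-fold (95% interval 8.75 to 125) above platypus. IL2RG, the common gamma chain of the receptors for IL-2, IL-7, IL-15 and IL-21, stood at 0.147 CPM (2 reads) in dog and 7.41 CPM in armadillo, a ratio of 50.5 (95% interval 13.6 to 423). IL15RA, which presents IL-15 to natural killer cells, stood at 0.881 CPM in dog and 17.6 in armadillo, 19.9-fold (95% interval 11.2 to 39.1) higher.

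IL21R stood at 0.147 CPM in dog and 2.87 in armadillo and was listed at 0 in platypus. IL2RA, the high-affinity chain of activated and regulatory T cells, stood at 2.95 CPM in armadillo and was listed at 0 in platypus. IL13RA1, a receptor chain for IL-13 and IL-4 on many non-lymphoid cells, stood at 178 CPM (95% interval 171 to 185) in armadillo (ENSDNOG00000011001) and 9.36 CPM (95% interval 5.79 to 14.3) in platypus. That made it 19.0-fold (95% interval 12.4 to 30.7) higher in armadillo.

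Receptors of the IL-10, IL-12 and related families stayed under 3 CPM in every library that listed them. IL10RA, the binding chain for IL-10, stood at 2.79 CPM in dog and was listed at 0 in platypus. IL22RA1, an epithelial receptor chain for IL-22, stood at 1.17 CPM (95% interval 0.671 to 1.91) in dog and 0.832 (95% interval 0.415 to 1.49) in armadillo, with overlapping intervals. IL31RA had 16 reads in dog, IL20RA 7 and IL22RA2, a soluble trap of IL-22, 1. IL20RB had 3 reads in dog and 4 in armadillo, and IL28RA, the receptor of interferon lambda, 3 and 6. IL12RB1 had 2 reads in dog, and IL12RB2 and IL23R had 3 each in armadillo. IL5RA, an eosinophil receptor, was listed at 0 in dog and platypus. IL4I1 stood at 1.61 CPM in dog and was listed at 0 in platypus.

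Levels of different genes can be compared only per length, which the dog table allows. On the scale of CPM per kilobase of gene model, IL17RA was highest among the dog members at 77.1, followed by CXCL16 at 25.0, IL17RC at 15.7, IL33 at 7.94 and CXCR6 at 4.27. CXCL16 and IL17RC changed places relative to the order by CPM, because the gene model of IL17RC is 4073 bases long and that of CXCL16 970. IL19 moved from place 14 by CPM to 7 per kilobase and IL34 from 10 to 6. The 4 members at 5 CPM or more in dog remained the 4 highest per kilobase.

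**Figure D4:**
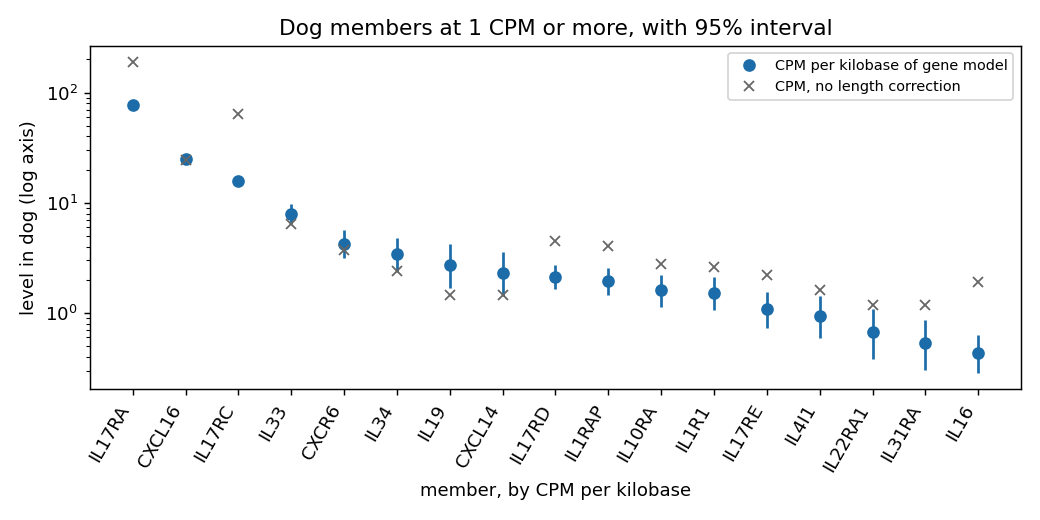
Dog members at 1 CPM or more, ordered by CPM per kilobase of gene model (filled circles, with exact 95% Poisson intervals), beside CPM without length correction (crosses), on a log axis. IL17RA leads on both scales, and CXCL16 lies above IL17RC only per kilobase.

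The signalling genes around these receptors did not share 1 direction between the eutherians. Of a list of 51 pathway genes (kinases, STAT factors, adaptors, NF-kB genes, colony stimulating factors and further chemokine genes), 22 were matched between dog and armadillo, and 4 were higher in dog and 8 in armadillo, against 12.6% and 13.2% of all matched genes. TYK2, a Janus kinase, stood at 170 CPM in dog and 6.96 CPM in armadillo, 24.4-fold (95% interval 19.8 to 30.4) higher in dog, and the adaptors TOLLIP and TRAF6 were also higher there. CSF2RB, the shared chain for IL-3, IL-5 and GM-CSF, was 47.5-fold (95% interval 26.3 to 95.8) higher in armadillo, and NFKBIZ, a nuclear regulator of IL-17 and IL-1 responses, 14.8-fold (95% interval 10.6 to 21.1). STAT2, RELB, TNFAIP3, CSF1 and CSF3R were higher in armadillo as well, and the IL-17 receptor adaptor TRAF3IP2 stood at 40.9 CPM there and was listed at 0 in dog. MYD88, the adaptor of IL-1 receptors, was near even at 83.1 and 88.5 CPM.

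Against platypus, 6 of 21 matched pathway genes were higher in dog and 1, TRAF3IP2, in platypus, where 32.0% and 9.93% of all matched genes were. Between armadillo and platypus 8 of 16 were higher in armadillo and 0 in platypus, where 36.1% and 11.0% of all matched genes were. JAK2 was higher in both eutherians (95.2 CPM in dog and 60.8 CPM in armadillo) than in platypus (10.7 CPM). So were CX3CL1 (37.2 and 9.76 CPM) and TNFAIP3 (12.0 and 77.5 CPM), both listed at 0 in platypus. JAK2, CX3CL1 and TNFAIP3 were the only genes higher in both eutherians among the 12 pathway genes with 3 values. Of all 6351 genes with 3 values, 25.8% were higher in both eutherians, a share near that of the pathway genes. SOCS3, a feedback inhibitor of cytokine receptors, stood at 140 CPM in armadillo and 3.12 in platypus.

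Markers of macrophages (4 of 4) and some of T and natural killer cells (2 of 6) moved with the members, and those of B cells, granulocytes and mast cells did not pass the limit. Of 24 leukocyte markers matched between dog and armadillo, 8 were higher in armadillo and 0 in dog, against 13.2% and 12.6% of all matched genes. The summed level of the 24 markers was 137 CPM in dog and 635 in armadillo. The macrophage genes CSF1R (8.81 and 113 CPM), CD68 (1.61 and 93.3), C1QB (26.1 and 133) and ITGAM (0.147 and 23.5) and the T and natural killer cell genes CD2 (0.367 and 5.83) and NKG7 (0.0734 and 5.83) were among those higher in armadillo. Of the B and plasma cell markers 0 of 4 passed, and of the granulocyte and mast cell markers 0 of 5, with a median log2 fold of dog over armadillo of 0.29. S100A9, a neutrophil and monocyte gene, stood at 28.0 CPM in dog and 17.9 in armadillo. PTPRC, the pan-leukocyte phosphatase CD45, stood at 3.89 CPM in dog and 15.5 in armadillo. In bulk tissue, fewer cells of a type and less RNA per cell cannot be told apart, and the part of leukocyte content in the member differences was not tested.

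Of the 4 pan-leukocyte markers listed in platypus, CORO1A and LAPTM5 were at 0, LCP1 had 6 reads (2.67 CPM) and CD53 1 read. All 3 T and natural killer cell markers listed in platypus were at 0. Of the 5 granulocyte and mast cell markers listed there, 4 were at 0. The other, KIT, stood at 11.1 CPM in platypus and 3.93 in armadillo. Of the 7 B and plasma cell markers listed in platypus, 5 were at 0 and TNFRSF17 had 1 read. The remaining marker IGHM, the heavy chain of IgM, stood at 1228 CPM there and 12.8 in dog. Endothelial and stromal genes also moved with the dog and armadillo difference. Over all genes matched in this pair, 13.2% were higher in armadillo and 12.6% in dog. All 3 matched endothelial markers were higher in armadillo, with summed levels of 79.0 CPM in dog and 7834 in armadillo, and 1 of 2 stromal markers. Of 4 epithelial markers 3 were higher in dog, and the sums were 2621 and 587 CPM. Both matched smooth muscle markers, MYH11 (1.61 and 10803 CPM) and TAGLN (21.7 and 10999 CPM), were higher in armadillo. All 3 smooth muscle markers matched between dog and platypus were higher in platypus, where 9.93% of all matched genes were. The part of these cell types in the member differences was not tested. In platypus KRT7, an epithelial keratin, stood at 2.23 CPM. The endometrial markers ESR1 (8.22 CPM in dog, 956 in platypus) and HOXA10 (14.3 in armadillo, 30.8 in platypus) were present in the libraries that listed them. MSX1 reached 643 CPM in the platypus library, against 3.16 for dog and 2.42 for armadillo. FOXA2 was near the floor for dog (0.661 CPM, 9 reads) and low for armadillo (1.29 CPM, 17 reads), against 57.5 CPM for platypus. Of the endometrial markers, all 3 matched between dog and platypus were higher in platypus. Between armadillo and platypus 2 of 3 were.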

How the data were processed

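Per the file headers, the deposited dog values are estimated counts, and those of armadillo and platypus are raw counts. The dog estimated counts equal mapped bases divided by 34; 516 are not whole and were rounded. Deposited with them in dog are 2 scores: the bases mapped to a gene, and its relative abundance in an unstated unit. Reads divided by that abundance and a fitted constant gave whole gene-model lengths, within 0.1 bases, for 100% of 5644 genes above 500 reads. The submitters' processing notes name Bowtie, and nothing used here states its version, the genome builds or the annotation. Lines of totals were left out.

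Levels are CPM of the summed gene counts. Symbols were matched in upper case where they occur once in a table. Dog genes under a UniProt entry name (1428) or an accession (1347) were not matched. A gene was called apart at 4-fold or more on the log2(CPM + 1) scale, with 5 CPM or more in the higher library. Intervals of levels are exact Poisson ones (95%). Printed folds are ratios of CPM, whose exact 95% intervals are conditional on the summed count. Both cover counting error only, since each species has 1 library. Reads lacking molecular identifiers can repeat a molecule, which the intervals do not take into account. A count of 0 allows up to 3 reads. Scripts (Python 3.11.15, SciPy 1.17.1) were tested on simulated data. Members, lists and the rule for named genes (the 10 members highest in a library, up to 10 called members per direction in a pair by fold, and those called alike in both eutherians against platypus) were chosen with earlier results of these data known. Other members are named by role. The values of 1 pathway gene are not reported here.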

Additional observations from a re-analysis of the deposited data

How the results depend on the processing

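Of 121 recomputed counts 98 stayed within 1.5 times the main count, and of 230 recomputed log2 folds of named members those of IL17RC between dog and armadillo alone changed sign, with median-of-ratios (-0.10) and upper-quartile scaling (-0.02). A pseudocount of 5 CPM lowered the count for dog and armadillo from 13 to 3 (0 higher in dog, 3 in armadillo) and that for armadillo and platypus from 10 to 4 (3 higher in armadillo), since it shrinks folds of low genes. Requiring 2 CPM in both libraries gave 2 for dog and armadillo (0 and 2), 2 for dog and platypus (1 and 1), 2 for armadillo and platypus (2 and 0) and 0 lower in both eutherians. Leaving out genes at 0 gave 1 higher in dog than platypus and 5 for armadillo and platypus (4 higher in armadillo). Without a minimum level, 7 differed between dog and platypus (4 higher in platypus) and 1 was higher in both eutherians. Upper-quartile scaling left 0 higher in dog than armadillo, against 10.3% of all matched genes. Reading dog entry names and accessions as symbols, chosen after seeing the data, raised the members matched between dog and armadillo from 36 to 52. Of these, 3 were higher in dog and 14 in armadillo. The shares over all genes were not computed for this matching, for the other pseudocounts or for the other minimum levels.

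Median-of-ratios scaling shifted log2 folds by -0.32 for dog over armadillo, -0.59 for dog over platypus and -0.27 for armadillo over platypus, and upper-quartile scaling by -0.25, -1.00 and -0.75. With upper-quartile scaling, 59.1% of all genes called between dog and platypus were higher in dog instead of 76.3%. Between armadillo and platypus 63.7% instead of 76.6% were higher in armadillo. Of the 40 members matched between dog and platypus, 2 were then higher in dog and 3 in platypus, against 24.4% and 16.9% of all matched genes. With median-of-ratios scaling CXCL14 and IL34 also passed between dog and armadillo (14 of 36 members higher in armadillo, against 15.2% of all matched genes). No paired analysis was possible because each species has 1 library, for which reason none could be left out either. Leaving out IL4I1, also chosen after seeing the data, could not move any count, since IL4I1 passed the limit in no pair. Reading dog entry names as symbols could not move the counts between armadillo and platypus either. Both kinds are among the 121 recomputed counts. The platypus depth of 2243556 reads limits what can be seen below 1.34 CPM.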

Other observations

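Some family genes stood outside the comparisons because their dog rows carry a UniProt entry name or a sequence accession in place of a symbol, or because only 1 table lists them. Of 51 such genes, chosen for mention after their values were seen, 39 were in 1 table only. With dog entry names read as symbols, the inflammatory cytokine genes IL1B and IL6 were higher in dog than in armadillo. IL1B, the main secreted IL-1, stood at 37.4 CPM (95% interval 34.3 to 40.8; 510 reads) in dog and 1.06 CPM (14 reads) in armadillo. IL6 stood at 14.8 CPM (95% interval 12.9 to 17.0) in dog, 0.605 in armadillo and 0.891 (2 reads) in platypus. IL1A stood at 3.60 and 1.89 CPM in dog and armadillo. The ligands IL1B and IL33 and the receptor genes IL1R1, IL1R2 and IL1RL1 thus had opposite orders in the 2 eutherian libraries. IL18 did not: its dog entry-name row held 30 reads (2.20 CPM), against 7.94 CPM in armadillo. Its receptor genes IL18R1 (0 in dog, 5.30 CPM in armadillo) and IL18RAP (0 and 3.93 CPM) had the same order as IL18. IL1RN, the IL-1 receptor antagonist, stood at 5.28 CPM in dog and 24.1 CPM in platypus (54 reads).

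IL24, a cytokine of the IL-10 family, had 683 reads in platypus, equal to 304 CPM (95% interval 282 to 328). It is not listed under that name in dog or armadillo, so nothing can be compared. In platypus its relatives IL19 and IL20 were listed at 0. CXCR7, a scavenger receptor of CXCL12, stood at 52.1 CPM in dog and 25.4 in platypus. CCL28, a mucosal chemokine, stood at 13.7 CPM in dog, and IL4R, the IL-4 receptor, at 14.2. The interferon-induced chemokines CXCL9 and CXCL10 stood at 10.7 and 8.78 CPM in armadillo, and CCL5 at 8.93 against 0.440 in dog.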
